A study of Mus musculus with 36 samples.

Results

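WT-TRAMP prostate was compared between 30 and 10 weeks of age, to ask which mature microRNAs (miRNAs) changed as the tissue aged and its tumours progressed. All libraries that the deposited tables assign to WT-TRAMP were used, 3 of 30 weeks and 3 of 10 weeks, which makes 6 of the 36 libraries of the series. Of the 1963 mature miRNAs listed, 1249 had a read in these 6 libraries, and the 505 with a mean of at least 1 read per 1000000 miRNA reads of a library (RPM) were tested. Just above this limit were miR-20a-3p at 1.03 and miR-376a-5p at 1.04 RPM, and just below it were miR-3962 and miR-879-5p at 0.993 each.

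The study sequenced small RNA from ventral and lateral prostate lobes of male mice with normal, deleted (KO) or mutated (A537T) Elac2, with and without the TRAMP transgene, at both ages, and 3 libraries were made for each of 12 groups. Elac2 encodes a nuclease that trims the 3′ ends of transfer RNAs. WT-TRAMP mice had intact Elac2 and, on a C56NL/6N background, were heterozygous for TRAMP, a transgene whose probasin promoter drives SV40 T antigens in prostatic epithelium. WT mice, 3 libraries at each age, shared the intact Elac2 and lacked the transgene. KO-TRAMP mice carried TRAMP and a homozygous prostate deletion of Elac2 by Pb-Cre, whose Cre is active in prostatic epithelium, and A537T-TRAMP mice carried TRAMP and 2 copies of the A537T allele in every tissue. The ages were sampled in different animals, and the study's methods describe its samples as biological replicates. The labels name no animal for a library, so that p-values measure the spread between these samples. SV40 transcripts and Elac2 messenger RNA were not measured here, so that no value below checks which group a library belongs to, nor how far its tumour had progressed.

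A miRNA silences messenger RNAs that pair with its seed, bases 2 to 8 from its 5′ end, and miRNAs that share a seed share many targets. The let-7 family accumulates as cells differentiate and silences growth genes such as Hmga2, Lin28 and Myc. The miRNAs of the imprinted Dlk1-Dio3 locus are made from the maternal chromosome as part of long non-coding transcripts, and are most abundant in embryonic tissue, placenta and brain. Large T antigen binds p53 and Rb, and miR-34 genes are transcriptional targets of p53.

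Of the 505 miRNAs, 437 matched a mature sequence in the RefSeq annotation of GRCm38.p6. The sequences below are those of miRNAs on which the results turn, with the seed in capitals. The first 7 carry the let-7 seed, which was shared by 10 tested miRNAs, and they show how little separates members that changed differently. The next 3 are the most abundant called miRNAs of the Dlk1-Dio3 locus, and the others are abundant rises, pairs of rises with a shared seed, and miR-155-5p of leukocytes. Those of miR-132-3p, miR-212-3p, miR-155-5p, let-7d-5p and let-7g-5p were added after their values were seen.
let-7a-5p: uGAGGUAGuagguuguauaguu
let-7b-5p: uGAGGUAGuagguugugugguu
let-7c-5p: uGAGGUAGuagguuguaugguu
let-7d-5p: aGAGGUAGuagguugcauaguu
let-7f-5p: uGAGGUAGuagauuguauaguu
let-7g-5p: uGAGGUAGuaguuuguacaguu
miR-98-5p: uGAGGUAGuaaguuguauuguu
miR-127-3p: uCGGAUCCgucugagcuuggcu
miR-541-5p: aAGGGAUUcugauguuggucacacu
miR-411-5p: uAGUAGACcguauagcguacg
miR-30a-3p: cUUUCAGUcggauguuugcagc
miR-30e-3p: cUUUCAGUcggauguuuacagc
miR-99a-5p: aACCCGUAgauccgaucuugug
miR-99b-5p: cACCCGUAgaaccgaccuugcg
miR-132-3p: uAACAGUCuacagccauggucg
miR-212-3p: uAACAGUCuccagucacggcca
miR-142a-3p: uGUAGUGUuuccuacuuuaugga
miR-155-5p: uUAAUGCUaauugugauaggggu
miR-126a-3p: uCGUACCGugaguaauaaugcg
miR-101a-3p: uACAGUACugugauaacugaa

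The 10-week libraries, numbered 1 to 3 in the tables, held 4544257, 8224957 and 10491199 miRNA reads, and the 30-week libraries 10, 11 and 12 held 17867885, 14626560 and 16317117. Epithelial miRNAs were abundant at both ages, with 5.78% to 9.05% of the reads of a library from the miR-200 family, and smooth muscle miRNAs took 8.70% to 19.5%. Skeletal muscle miRNAs took 0.251% to 0.637% of reads, miR-122-5p of liver 2.29 to 10.4 RPM, and a list of 25 miRNAs typical of testis and epididymis 1 to 104 reads. Within an age, log2 levels of the 505 miRNAs correlated across miRNAs at 0.970 to 0.994, and between ages at 0.960 to 0.981.

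Library 12 stood apart in another way, because it lay between libraries 10 and 11 for 361 of 499 miRNAs (72.3%), and for 81.7% of those with a mean of at least 10. Libraries 10 and 11 each lay between the other 2 for 14.8% and 12.8%, and among the 10-week libraries this share was 26.5% to 46.8%. A weighted average of 43% library 10 and 57% library 11 left 0.292% of the squared difference between those libraries unexplained in library 12. The median distance of library 12 from this average was 0.06 on the log2 scale, against 0.33 between libraries 10 and 11. Its read counts still differed from the average beyond counting error, with a chi-square of 10.7 per degree of freedom, against at least 186 for any pair of libraries of 1 age. Among the groups used for comparison, library 21 of WT and library 18 of KO-TRAMP, both of 30 weeks, lay between the others of their group for 73.5% and 66.9% of miRNAs. The cause was not tested. The labels list 3 replicates in this group but name no animals, and whether library 12 comes from a mouse other than those of libraries 10 and 11 was not tested. Every p-value and SD with n = 3 below counts it as a separate sample. Counts over all miRNAs and over some lists are also given without it, and the other counts can rest on it.

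**Figure D1:**
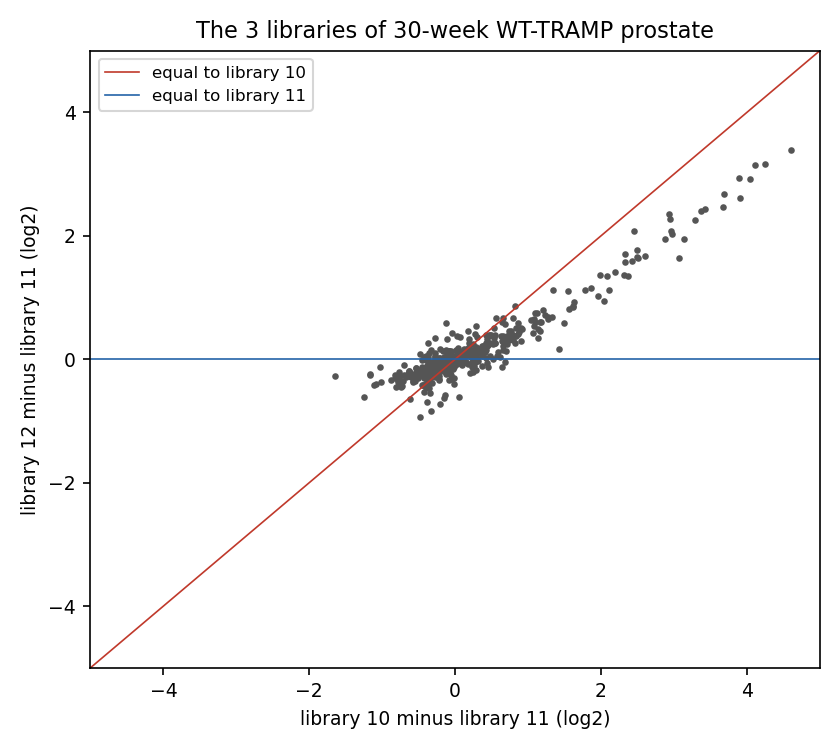
Each point is 1 of 505 miRNAs, with its log2 difference between libraries 10 and 11 of 30-week WT-TRAMP prostate on the horizontal axis and that between libraries 12 and 11 on the vertical axis, both on the log2(RPM + 1) scale. Points between the red and blue lines are miRNAs for which library 12 lay between the other 2. This held for 72.3% of the 499 miRNAs with a mean of at least 1 RPM over the 30-week WT-TRAMP libraries.

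Between 10 and 30 weeks, 33 miRNAs rose and 71 fell in WT-TRAMP prostate. These were 6.53% and 14.1% of the 505 at an adjusted p of 0.05 (limma on log2(RPM + 1), two-sided, Benjamini-Hochberg), and fold changes below are on this log2 scale. The added 1 makes changes of scarce miRNAs look smaller than they are. The groups overlapped for none of the 104, while over all miRNAs 17.4% were higher without overlap and 25.7% lower. The median of all 505 was -0.02. With TMM scaling, which sets the scale of a library from the bulk of its miRNAs, 44 rose and 57 fell, and the median of all was 0.04. edgeR called 48 higher and 64 lower, and DESeq2 68 higher and 79 lower. A fit of all 36 libraries called 20 higher and 19 lower, and leaving out library 11 gave 75 and 71. Without library 12, 15 miRNAs passed, 6 higher and 9 lower, and all 15 were among the 104. The 9 were from the Dlk1-Dio3 locus. The 6 were miR-34b-3p, miR-34c-5p, miR-34c-3p, miR-132-3p, miR-132-5p and miR-135b-5p. No other WT-TRAMP call named below passed in that fit. All 104 then kept their direction with an unadjusted p under 0.05. Their direction could not change, because none overlapped between ages, and they were chosen by p from these same libraries. This count is therefore a description only. In that fit 121 of the 505 had an unadjusted p under 0.05, against 36% of the 505 with every library. In the same 5 libraries 0 passed with edgeR's quasi-likelihood test, where 136 had an unadjusted p under 0.05, and 0 with limma after TMM scaling, where 125 did.

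The median mean level was 41.3 RPM for rises and 16.4 for falls, against 16.8 over all. Together the 33 rises made up 40793, 42761 and 44840 RPM in the 10-week libraries and 60657, 57424 and 59476 in the 30-week libraries. The 71 falls made up 169304, 160811 and 133456 RPM at 10 weeks and 94856, 111177 and 104023 at 30 weeks, most of them let-7 reads. Of the 62 miRNAs with a mean of at least 1000 RPM, 17 were called (27.4%, against 20.6% of all 505), and none of these changed by more than 1.05 on the log2 scale.

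**Figure D2:**
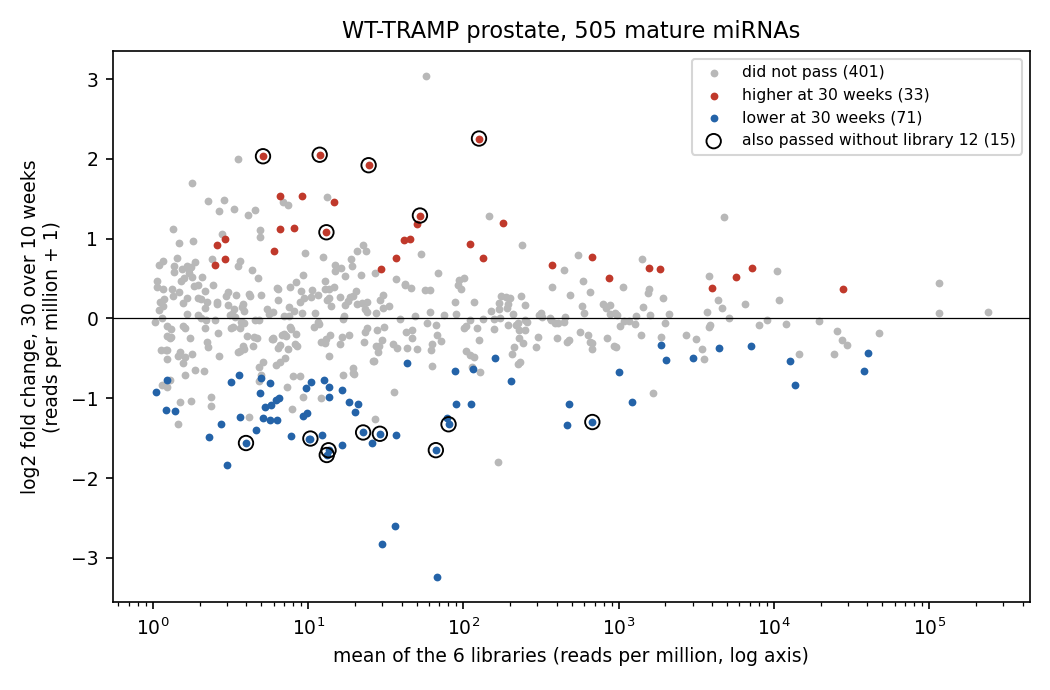
The mean level of each of 505 miRNAs over the 6 libraries (RPM, log axis) is plotted against its log2 fold change from 10 to 30 weeks in WT-TRAMP prostate, with 33 called rises in red, 71 called falls in blue and black rings around the 15 that also passed without library 12. Changes above 1.05 in size were called only below 1000 RPM.

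The miRNAs of the imprinted Dlk1-Dio3 locus fell together. Of 86 listed members 52 were tested, all 52 were lower at 30 weeks, 49 without overlap between ages, and 37 passed the test, against 14.1% falls over all miRNAs. Their median log2 fold change was -1.07, with a range of -1.84 to -0.32. Summed over the locus, the level was 2437, 2230 and 2850 RPM at 10 weeks and 1024, 1291 and 1160 at 30 weeks, a decrease of the mean from 2506 ± 316 to 1158 ± 133 (SD, n = 3 each). The locus gave 0.102% to 0.285% of the reads of a library. Without library 12 the median stayed at -1.07 and all 52 were lower. Neither could change much, because library 12 lay close to a weighted average of the other 30-week libraries. The 49 members without overlap also could not change direction, so that these values are a description only. Without library 12, 9 members passed the adjusted threshold with limma. The count was 0 after TMM scaling or with edgeR, where 39 had an unadjusted p under 0.05. In bulk tissue such as this, fewer cells that make a miRNA and less of it per cell cannot be told apart.

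Of the tested members, 49 had a single position, in 36 precursors on the plus strand of chr12:109571990-109743795 (GRCm38), a stretch of 172 kb, and each of the 49 was lower at 30 weeks. The precursors formed a proximal group around Rtl1 and a distal group of 26 precursors at 109709060 to 109743795. In the distal group 26 of 35 mature miRNAs were called, with a median of -1.03, counting miR-1193-3p, which was not on the list. miR-341-3p and miR-370-3p lay between the groups and fell by 1.46 and 1.17 on the log2 scale (adjusted p = 0.00884 and 0.0486). In the proximal group, which begins with miR-770-3p at 109563692, 10 of 14 were called, with a median of -1.21. miR-770-3p was not a member of the list, lies upstream in the Meg3 locus and was also called, at -1.48.

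**Figure D3:**
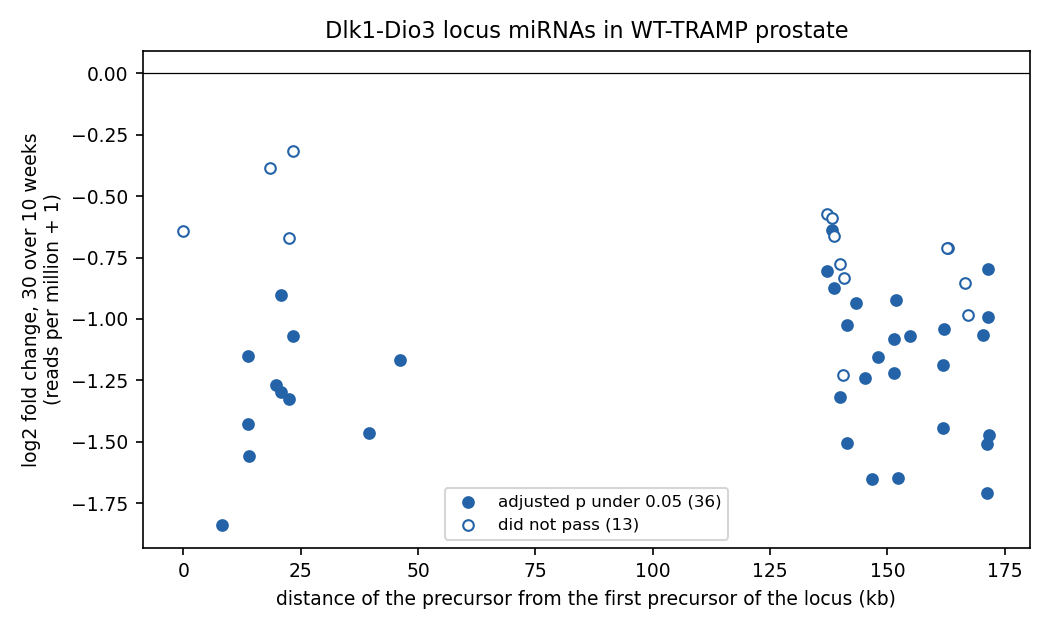
The 49 miRNAs of the Dlk1-Dio3 locus with a single position are placed by the distance of their precursor from the first one (kb), with the log2 fold change from 10 to 30 weeks in WT-TRAMP prostate on the vertical axis. Filled points passed an adjusted p of 0.05 (36), open points did not (13), and every point lies below 0.

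The most abundant of them, miR-127-3p, is transcribed antisense to the coding exon of Rtl1, which it can cleave. It measured 879, 861 and 1151 RPM at 10 weeks and 341, 441 and 388 at 30 weeks. Every 10-week library was above every 30-week library, and the log2 fold change was -1.30 (SE 0.16, limma adjusted p = 0.00513). Its opposite arm, miR-127-5p, moved by -0.90. The next members by level were miR-379-5p, which leads the distal group, at -0.57 (adjusted p = 0.0651), and miR-434-5p, at -0.67 (adjusted p = 0.0785), neither of which passed. miR-434-3p, from the other arm of that hairpin, measured 118, 101.2 and 127 RPM at 10 weeks and 39.5, 49.8 and 46.8 at 30 weeks, and fell by 1.33 on the log2 scale (SE 0.15, adjusted p = 0.00513).

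miR-541-5p measured 148, 135 and 173 RPM at 10 weeks and 63.7, 84.2 and 68.2 at 30 weeks, a change of -1.07 (SE 0.16, adjusted p = 0.00884). miR-411-5p measured 155, 139 and 128 RPM at 10 weeks and 79.6, 98.2 and 92.7 at 30 weeks, a change of -0.64 (SE 0.14, adjusted p = 0.0231). Both distal miRNAs thus separated the ages, by unequal amounts. The lowest of those named by rule, miR-493-5p of the proximal group, was at 1.98, 4.62 and 9.63 RPM at 10 weeks and 0.547 to 0.616 at 30 weeks, and changed by -1.84 (adjusted p = 0.0310).

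Among the calls that also passed without library 12, 9 were falls and all 9 were from this locus, namely miR-127-3p, miR-300-3p, miR-329-5p, miR-337-5p, miR-382-5p, miR-409-3p, miR-434-3p, miR-495-3p and miR-540-3p. Members with a mean under 100 RPM other than miR-493-5p were chosen for display after their values were seen. miR-300-3p measured 98.4, 81.1 and 125 RPM at 10 weeks and 36.8, 28.2 and 29.2 at 30 weeks. miR-495-3p measured 21.6, 19.3 and 22.11 at 10 weeks and 4.76, 6.56 and 6.86 at 30 weeks. Their log2 fold changes were both -1.65.

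The let-7 family took a smaller share of the miRNA pool at 30 weeks. Its listed members summed to 20.7%, 19.7% and 16.2% of reads at 10 weeks and 12.4%, 14.2% and 13.5% at 30 weeks, a mean of 188463 ± 23793 against 133590 ± 9317 RPM. The ages did not overlap, and library 3 was the lowest of the young libraries. Of 19 tested members 16 were lower, 7 fell and none rose, with a median of -0.27, against 52.1% lower, 14.1% falls and a median of -0.02 over all miRNAs. After TMM scaling 3 passed, 15 were lower and the median was -0.19. Without library 12 none passed with limma, 8 having an unadjusted p under 0.05, as with every library. edgeR without library 12 also called 0 with 8 under 0.05.

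Of the 10 tested miRNAs with the let-7 seed, 9 were lower and 7 fell. The largest falls were -1.11 in let-7k, at a mean of 5.24 RPM (adjusted p = 0.00992), and -1.05 in miR-98-5p. At the other end were -0.16 in let-7g-5p and 0.07 in let-7e-5p, neither of which passed. miR-98-5p, a let-7 member from an intron of Huwe1 on chromosome X, measured 1951, 1790 and 1224 RPM at 10 weeks and 708, 851 and 795 at 30 weeks (SE 0.19, adjusted p = 0.0118). let-7b-5p measured 21709, 17293 and 13966 at 10 weeks and 8660, 10793 and 9834 at 30 weeks, a change of -0.84 (SE 0.18, adjusted p = 0.0190). let-7c-5p, which differs from let-7b-5p outside the seed, measured 55587, 48591 and 36651 at 10 weeks and 26827, 32039 and 29016 at 30 weeks, a change of -0.66 (SE 0.17, adjusted p = 0.0333). In all of these the libraries of 10 weeks were higher, with library 3 nearest to the older ones.

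let-7a-5p fell by 0.53 on the log2 scale (adjusted p = 0.0227), let-7f-5p, the most abundant member, by 0.44 (adjusted p = 0.0401) and let-7d-5p by 0.49 (adjusted p = 0.0469). let-7i-5p stood at -0.45 with an adjusted p of 0.0530, and let-7g-5p at -0.16 with 0.223, so that these were not called. let-7 genes sit in several clusters. In the cluster of let-7a-1, let-7f-1 and let-7d on chromosome 13, the 4 mature miRNAs with a single position were lower and 2 were called. In let-7e and miR-125a on chromosome 17, none of 4 was below 0.

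Other abundant falls lay outside the Dlk1-Dio3 and let-7 lists. miR-204-5p, from an intron of Trpm3, measured 1327, 1244 and 1142 RPM at 10 weeks and 689, 862 and 785 at 30 weeks, a change of -0.67 (SE 0.12, adjusted p = 0.0128), and its other arm fell too. miR-345-5p measured 297, 250 and 220 at 10 weeks and 153, 143 and 146 at 30 weeks, a change of -0.78 (SE 0.14, adjusted p = 0.0118). miR-196a-5p, which is made from 2 genes within the Hox clusters and targets Hoxb8, measured 892, 648 and 425 at 10 weeks and 236, 367 and 304 at 30 weeks, a change of -1.07 (SE 0.29, adjusted p = 0.0407). None of these 3 overlapped between ages, and for miR-196a-5p library 3 lay nearest to the older libraries.

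Of 7 tested skeletal muscle miRNAs 3 fell, against 14.1% over all, 5 were lower, against 52.1%, and the median was -0.71. miR-133a-3p measured 632, 736 and 606 RPM at 10 weeks and 350, 202 and 250 at 30 weeks, a change of -1.33 (SE 0.21, adjusted p = 0.00964). miR-206-3p, found in skeletal muscle and not in heart, was at 21.8, 318 and 44.7 at 10 weeks and 3.69, 8.55 and 7.72 at 30 weeks, and library 2 alone carried most of it. miR-1a-3p, the most abundant of the list, stood at -0.38 (adjusted p = 0.402). Leaving the muscle list out of the totals changed the counts over all miRNAs to 33 rises and 68 falls.

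Among miRNAs of lower level, the brain-enriched miR-138-5p and miR-129-5p showed the steepest falls after miR-206-3p. miR-138-5p measured 36.3, 30.6 and 93.6 RPM at 10 weeks and 8.90, 3.28 and 6.43 at 30 weeks, a change of -2.82 (SE 0.48, adjusted p = 0.0105). miR-129-5p measured 31.2, 43.8 and 114 at 10 weeks and 16.3, 3.08 and 9.44 at 30 weeks, a change of -2.60 (SE 0.63, adjusted p = 0.0329). In both, library 3 was the highest and library 11 the lowest. Of 16 tested miRNAs listed for neuroendocrine and neural cells, 4 rose and 2 fell, with a median of -0.06, against 6.53% rises, 14.1% falls and a median of -0.02 over all. The falls were miR-129-5p and the islet and neuroendocrine miR-7a-5p, at -0.37 (adjusted p = 0.0392), and the rises were the 4 mature miRNAs of the miR-132/212 hairpins.

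Among the rises, the miR-34b/c gene showed the largest. This gene yields both hairpins from 1 transcript, lies opposite an intron of Btg4 at chr9:51103034-51103645, and is a p53 target that restrains the cell cycle. miR-34c-5p measured 46.9, 30.4 and 46.9 RPM at 10 weeks and 307, 126 and 199 at 30 weeks. The ages did not overlap, library 10 was highest, and the log2 fold change was 2.25 (SE 0.34, adjusted p = 0.00884). miR-34b-3p measured 4.18, 3.04 and 4.19 at 10 weeks and 29.5, 12.6 and 17.7 at 30 weeks, a change of 2.05 (SE 0.31, adjusted p = 0.00884).

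Both other arms also rose, miR-34c-3p by 2.03 (adjusted p = 0.00513) and miR-34b-5p by 1.54 (adjusted p = 0.0286). miR-34a-5p, from another p53-responsive gene with the same seed, measured 52.6, 41.9 and 24.1 at 10 weeks and 76.1, 60.1 and 65.3 at 30 weeks, a change of 0.81 (adjusted p = 0.0836) that did not pass. miR-449a-5p, also with this seed and made by multiciliated cells, stood at -0.998 (adjusted p = 0.0897). Of the 6 tested miRNAs of the list, 4 rose, against 6.53% over all miRNAs, and the median was 1.78. Without library 12, 3 of these passed with limma, and 0 passed after TMM scaling or with edgeR, where 5 had an unadjusted p under 0.05.

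The miR-132/212 hairpins at chr11:75173388-75173747 gave 4 tested miRNAs, and all 4 rose with a median of 1.10, against 6.53% rises over all. They are induced by CREB in neurons and occur in endothelium and immune cells. miR-132-3p measured 29.5, 29.1 and 31.5 RPM at 10 weeks and 81.8, 68.4 and 74.7 at 30 weeks, which made it the call with the smallest p of the comparison (log2 fold change 1.29, SE 0.13, adjusted p = 0.00513). miR-212-3p, which shares its seed, was at 1.70 to 2.20 and then 3.19 to 4.38 RPM, a change of 0.74 (adjusted p = 0.0401). Both miR-132 arms also passed without library 12, with limma.

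miR-135b-5p, which is raised in several epithelial tumours, measured 8.36, 8.15 and 12.3 RPM at 10 weeks and 49.6, 28.9 and 39.9 at 30 weeks, a change of 1.92 (SE 0.25, adjusted p = 0.00605). It belonged to a list of oncofetal and stem cell miRNAs of which 5 of 25 were tested and 3 rose, against 6.53% over all, the others being miR-31-3p at 0.76 (adjusted p = 0.0364) and miR-224-5p at 0.62 (adjusted p = 0.0333). None of the 5 was below 0, and the median was 0.76.

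Leukocyte miRNAs were higher at 30 weeks in all 8 tested members, with a median of 0.57, and 3 rose, while over all miRNAs 47.9% were higher and 6.53% rose. miR-142a-3p, made by all blood cells, measured 151, 124 and 65.1 RPM at 10 weeks and 229, 260 and 249 at 30 weeks, a change of 1.19 (SE 0.30, adjusted p = 0.0333). miR-150-5p, of mature lymphocytes, measured 70.2, 90.6 and 67.7 at 10 weeks and 145, 146 and 144 at 30 weeks, a change of 0.93 (SE 0.15, adjusted p = 0.00964). miR-155-5p, which activated lymphocytes and macrophages make, measured 36.1, 33.4 and 22.11 at 10 weeks and 65.4, 74.2 and 68.8 at 30 weeks, a change of 1.19 (SE 0.20, adjusted p = 0.0108).

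The 3 called leukocyte miRNAs separated the ages, with library 3 the lowest in each. The most abundant of the list, miR-146a-5p, which restrains NF-kB signalling, stood at 0.53 (adjusted p = 0.113), and miR-142a-5p at 0.60 (adjusted p = 0.160). The summed list barely separated the ages, at 3369 to 5343 RPM at 10 weeks and 5386 to 7381 at 30 weeks. Without library 12, 0 of the 8 passed with limma, 3 having an unadjusted p under 0.05, and edgeR also called 0, with 4. The red cell and platelet list was also higher in 5 of 5, with 1 rise, miR-144-5p at 0.92 (adjusted p = 0.0401), against 47.9% higher and 6.53% rises over all. The erythroid miR-451a stood at 0.42 (adjusted p = 0.108).

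Several abundant miRNAs rose by smaller amounts. miR-126a-3p, made from Egfl7 in endothelial cells, measured 5339, 6278 and 5268 RPM at 10 weeks and 8070, 9461 and 8647 at 30 weeks, a change of 0.63 (SE 0.11, adjusted p = 0.0118). miR-101a-3p, which targets the Polycomb methyltransferase Ezh2, measured 1113, 1338 and 1230 at 10 weeks and 2127, 1732 and 1875 at 30 weeks, a change of 0.64 (SE 0.12, adjusted p = 0.0151). miR-139-5p measured 97.9, 85.0 and 112 at 10 weeks and 205, 132 and 170 at 30 weeks, a change of 0.76 (SE 0.19, adjusted p = 0.0361). All 3 separated the ages.

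In the miR-30 family, which is abundant in differentiated epithelium, 3 of 11 members rose and 1 fell, with a median of 0.04. The shares over all miRNAs were 6.53% rises and 14.1% falls, with a median of -0.02. miR-30a-3p measured 467, 460 and 583 RPM at 10 weeks and 825, 894 and 835 at 30 weeks, a change of 0.77 (SE 0.13, adjusted p = 0.0105), and miR-30e-3p, which has the same seed, moved by 0.67 (adjusted p = 0.0112). miR-30c-5p moved by 0.52 (adjusted p = 0.0190), while miR-30b-5p, from the same arm of its hairpin, moved by -0.51 (adjusted p = 0.0401). Members of 1 family therefore went in both directions. In the large cluster within an intron of Sfmbt2, 10 members were tested and 1 rose, miR-467a-5p, by 0.84 (adjusted p = 0.0394). Of 3 listed miR-21 members 1 fell, the scarce miR-21c, by -0.75 (adjusted p = 0.0282). Of the 6 tested members of the basal and luminal epithelial list 0 were called with limma or edgeR, 1 having an unadjusted p under 0.05 with each, and DESeq2 called 1 lower.

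Of 10 tested miRNAs of the miR-99/100 and miR-125 clusters, 3 rose and none fell, with a median of 0.29. Over all miRNAs 6.53% rose, 14.1% fell and the median was -0.02. miR-99a-5p, which targets Mtor, measured 23243, 23988 and 25644 RPM at 10 weeks and 33001, 29627 and 31850 at 30 weeks, a change of 0.37 (SE 0.09, adjusted p = 0.0333). miR-99b-5p moved by 0.62 (adjusted p = 0.0105) and miR-125b-5p by 0.38 (adjusted p = 0.0488). The Mir99ahg transcript on chromosome 16 holds both miR-99a and let-7c-1, and miR-99a-5p was higher at 30 weeks while let-7c-5p, which is also made from chromosome 15, was lower. After TMM scaling 1 of the 10 passed, and 0 did so without library 12, where 3 had an unadjusted p under 0.05 with limma and 1 did with edgeR, which also called 0.

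**Figure D4:**
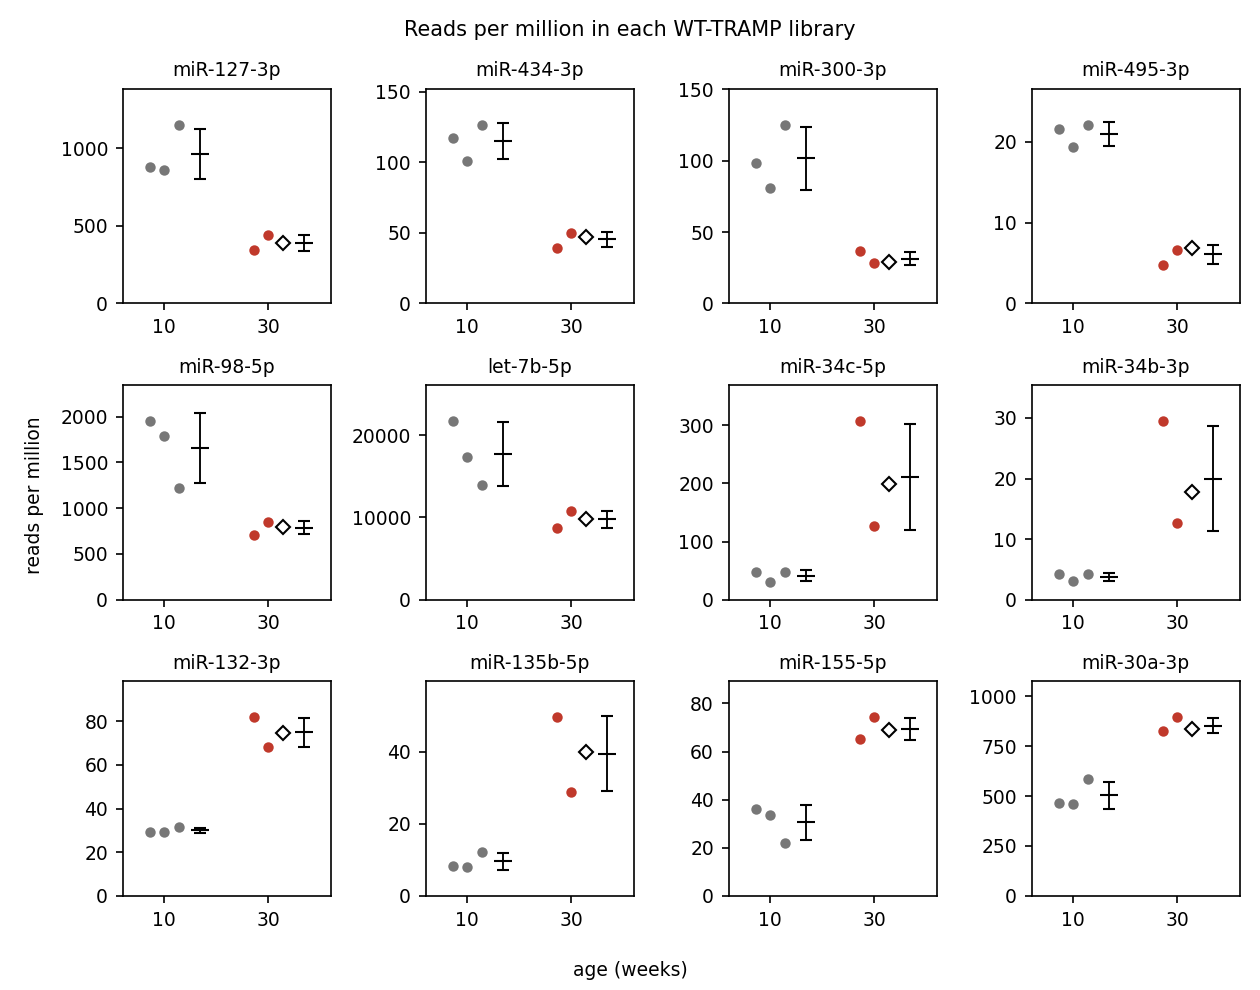
RPM of 12 miRNAs in each WT-TRAMP library at 10 weeks (grey) and 30 weeks (red, with library 12 as an open diamond), with the mean and SD of 3 libraries in black. In every panel the libraries of the ages lie apart, and library 12 lies between the other 2 of 30 weeks in all but miR-495-3p.

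Most of the highest miRNAs were not called. miR-148a-3p, the leading miRNA of prostate in these libraries, took 186376 to 275828 RPM at 10 weeks and 229424 to 255698 at 30 weeks (log2 fold change 0.08, adjusted p = 0.739). miR-21a-5p, raised in many tumours and in inflammation, was at 98702 to 126449 and 91145 to 145954 (0.07, adjusted p = 0.821), and the sign of both differences depended on single libraries. miR-26a-5p stood at -0.18 (adjusted p = 0.283).

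For several smooth muscle and epithelial miRNAs libraries 10 and 11 lay far apart. miR-143-3p, of smooth muscle, measured 187228 RPM in library 10, 128745 in library 12 and 88563 in library 11, against 82642 to 102656 at 10 weeks, and none of its list of 4 passed. miR-10b-5p ran from 1794 in library 11 to 13252 in library 10 (adjusted p = 0.209), and the luminal and endocrine miR-375-3p from 669 to 3070 (adjusted p = 0.383). Of 9 tested members of the miR-200 family, which holds epithelial cells in their state by repressing Zeb1 and Zeb2, 8 were lower and none passed with limma or edgeR, 2 having an unadjusted p under 0.05 with each, and the median was -0.33. DESeq2 called 1 of them lower, and limma called 1 without library 3 and 2 without library 11. miR-200b-3p stood at -0.33 (adjusted p = 0.145) and miR-205-5p, of basal cells, at -0.93 (adjusted p = 0.106).

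The other lists held few calls, while over all miRNAs 6.53% rose and 14.1% fell. In the X-linked cluster of miR-322 and miR-450 none of 9 was below 0 and none passed, with a median of 0.66 and 6 unadjusted p under 0.05. In the miR-17/92 clusters, which are driven by Myc and E2F, none of 19 passed and the median was -0.09. The fibroblast list held 2 falls of 8, both arms of miR-152, of which miR-152-3p moved by -0.34 (adjusted p = 0.0354), and the miR-181 list held miR-181a-5p at -0.33 (adjusted p = 0.0446) and 1 rise. No member passed among 4 of the miR-221 list, 2 of the hypoxia-induced miR-210 list, 7 of miR-29 or 10 of miR-15/16. The same held for 10 of miR-23/27/24, 6 of the miR-183 cluster, 5 of miR-378 and 3 of the miR-192 list. Nor did any of the 4 arms of miR-148a and miR-148b pass, although the called miR-152-3p shares the seed of their 3p arms.

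Both arms of a hairpin come from 1 precursor, and they mostly moved together. Of 138 precursors with both arms tested, 108 had the arms on the same side of 0, and the fold changes of the arms correlated across precursors with r = 0.79. In 17 precursors both arms were called, always in the same direction. Where 1 arm was called, the other lay on the same side in 23 of 27. The median GC content was 47.8% in the rises and 45.5% in the falls, against 47.8% over all matched miRNAs.

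WT mice without the transgene were then used to ask whether the age difference depended on TRAMP. In WT prostate 20 of 511 miRNAs passed between 10 and 30 weeks (3.91%), of which 2 rose (0.391%) and 18 fell (3.52%). The falls were led by skeletal muscle miRNAs, with miR-133a-3p at -4.95 (adjusted p = 0.000288) and miR-1a-3p at -5.50 (adjusted p = 0.00125), and the muscle list took 9.86% to 30.9% of reads in WT at 10 weeks and 0.410% to 0.503% at 30 weeks. So large a share lowers every other miRNA of those 10-week libraries on this scale. The median of all WT differences was 0.14, and -0.01 after TMM scaling.

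The age difference differed between WT-TRAMP and WT for 56 of 513 miRNAs (limma interaction over 12 libraries), 30 of them higher in WT-TRAMP (5.85%) and 26 lower (5.07%). After TMM scaling these were 41 and 13, with the muscle list left out 32 and 9, and with edgeR 48 and 4. The median over all miRNAs was -0.15, and 0.06 after TMM scaling. Without library 12 the count was 35, and without libraries 12 and 21 it was 7 higher and 0 lower, with 89 at an unadjusted p under 0.05. The smallest p belonged to miRNAs that fell in WT and are enriched in striated muscle or come from the miR-378 family, namely miR-133a-3p at 3.62, miR-133a-5p at 4.68, miR-1a-3p at 5.12, miR-133b-3p at 3.40 and miR-378c at 2.48 (adjusted p from 0.000304 to 0.00143).

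Of the 33 rises of WT-TRAMP, 7 were called higher in this interaction. The rises and falls were chosen by the WT-TRAMP age difference, which the interaction contains from the same libraries, so that an excess in their own direction is built in and these counts are a description only. miR-34c-3p differed by 1.94 (adjusted p = 0.0115), and was at 1.99 to 4.54 RPM at 10 weeks and 2.35 to 3.96 at 30 weeks in WT. miR-155-5p differed by 1.63 (adjusted p = 0.0310), miR-126a-3p by 1.43 (adjusted p = 0.0233), miR-30a-3p by 1.16 (adjusted p = 0.00662) and miR-30c-5p by 0.69 (adjusted p = 0.0310). miR-708-3p, from an intron of Tenm4, differed by 2.52 (adjusted p = 0.0113), and these 6 were chosen after their values were seen. miR-34c-5p, with a difference of 2.11, did not pass (adjusted p = 0.114), and WT libraries ranged from 25.6 to 113 RPM.

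Of the 71 falls, 9 were called lower in the interaction and 2 higher. The let-7 family was lower in WT-TRAMP relative to WT in 18 of 19 members, 6 of them called, with a median of -0.44. After TMM scaling this was 15 lower, 3 called and a median of -0.20, and with the muscle list left out 13 lower, 2 called and a median of -0.13. let-7c-5p differed by -1.40 (adjusted p = 0.00431), let-7b-5p by -1.60 (adjusted p = 0.00780) and let-7f-5p by -0.88 (adjusted p = 0.00565). In WT the summed family was 110735 to 122697 RPM at 10 weeks and 147781 to 160792 at 30 weeks, while the muscle share of the 10-week libraries was as given above. With the muscle list left out of the totals, an alternative chosen after seeing the data, the WT sums were 136122 to 160138 at 10 weeks and 148528 to 161455 at 30 weeks and overlapped, and those of WT-TRAMP were 162406 to 207600 and 124386 to 142690 and did not. Without libraries 12 and 21 none of the 19 was called by limma, 7 having an unadjusted p under 0.05, and edgeR with all libraries called 1. The miR-200 members miR-200c-3p and miR-429-3p were also lower in the interaction, by -1.38 (adjusted p = 0.00523) and -1.47 (adjusted p = 0.0115), while edgeR called 0 of the 9 in that list, 2 having an unadjusted p under 0.05, and limma without libraries 12 and 21 also called 0, with 5.

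For the Dlk1-Dio3 locus the difference between WT-TRAMP and WT did not pass the test. In WT 51 of 60 tested members were lower at 30 weeks, with a median of -0.46 and 0 called with limma, 4 having an unadjusted p under 0.05, and 1 called lower after TMM scaling and with edgeR. Without library 19, 29 of 63 were lower and the median was 0.06. The summed level ranged from 2796 to 4967 RPM at 10 weeks and from 959 to 3877 at 30 weeks. With the muscle list left out of the WT totals, the sums were 3460 to 5511 and 963 to 3896. Then 60 of 62 members were lower with a median of -0.74, and limma called 0, with 12 unadjusted p under 0.05. After TMM scaling of all miRNAs 56 of 60 were lower with a median of -0.62, and with edgeR 52 with a median of -0.60. The interaction called 0 of 55 members with limma, none with an unadjusted p under 0.05, and 0 with edgeR, 6 with an unadjusted p under 0.05. For miR-127-3p the difference was -0.70 (SE 0.61, adjusted p = 0.510). Without library 19 of WT, 9 members were called lower in WT-TRAMP and the median was -1.14. In that fit 38 of all 517 miRNAs were called lower, and the median over all was -0.27.

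KO-TRAMP and A537T-TRAMP mice carry the same transgene, and their libraries are independent of those of WT-TRAMP when each line is compared between its own ages. In KO-TRAMP 0 of 513 miRNAs passed with limma, 107 having an unadjusted p under 0.05, and 0 passed with edgeR, with 111. Without library 16 of that line 124 passed. In A537T-TRAMP 5 of 496 rose (1.01%) with limma, 4 rose and 2 fell after TMM scaling, and 0 passed with edgeR, where 88 had an unadjusted p under 0.05. Leaving out any 1 of those 6 libraries left 0 to 2. TMM scaling moved the median of all differences from 0.27 to 0.05 in KO-TRAMP and from 0.15 to 0.02 in A537T-TRAMP.

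The WT-TRAMP rises went the same way in these lines for 32 of 33 in KO-TRAMP, where 65.5% of all tested miRNAs were higher at 30 weeks, and for 29 of 33 in A537T-TRAMP, where 63.7% were. In WT this was 21 of 33, against 58.7% of all tested. After TMM scaling, counts added after seeing the data, it was 28 in KO-TRAMP (53.2% of all), 28 in A537T-TRAMP (52.2%) and 14 in WT (49.1%). At an unadjusted p under 0.05 the rises in the same direction numbered 14 in KO-TRAMP, 19 in A537T-TRAMP and 0 in WT, where 16.6%, 13.5% and 9.98% of all tested miRNAs were higher at that p. The rises miR-155-5p and miR-142a-3p passed in A537T-TRAMP at 1.63 and 1.80, as did the leukocyte miR-223-3p at 1.59 and miR-142a-5p at 1.55, which had not been called in WT-TRAMP (adjusted p = 0.0481 for each of the 4). In KO-TRAMP miR-155-5p stood at 2.21 (adjusted p = 0.0604). miR-34c-5p stood at 1.84 in KO-TRAMP (adjusted p = 0.122) and at 1.46 in A537T-TRAMP (adjusted p = 0.0624), and miR-132-3p at 1.66 (adjusted p = 0.0792) and 0.90 (adjusted p = 0.251).

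Among the WT-TRAMP falls outside the Dlk1-Dio3 list, 29 of 34 were also lower in KO-TRAMP, where 34.5% of all miRNAs were, and 24 of 34 in A537T-TRAMP, where 36.3% were. After TMM scaling these were 30 and 27, where 46.8% and 47.8% of all were. Of the let-7 family 16 of 19 were lower in KO-TRAMP, with a median of -0.43 and 0 called with limma (3 at an unadjusted p under 0.05), and 6 of 19 in A537T-TRAMP, with a median of 0.14. The direction in A537T-TRAMP depended on the scaling, with 10 of 19 lower and a median of -0.008 after TMM scaling, and 12 lower and -0.073 with edgeR. In WT, 7 of 33 WT-TRAMP falls outside the Dlk1-Dio3 list were lower, against 41.3% of all. After TMM scaling 11 were, against 50.9% of all, and with edgeR 9, against 47.2%. Lower at an unadjusted p under 0.05 were 12 of the 34 in KO-TRAMP, 4 in A537T-TRAMP and 4 of the 33 in WT, against 4.29%, 3.63% and 8.41% of all tested.

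Of the Dlk1-Dio3 members 11 of 52 were lower in KO-TRAMP with a median of 0.27. This depended on the scaling and on single libraries, with 21 lower and a median of 0.07 after TMM scaling, 24 lower and 0.04 with edgeR, 23 of 53 lower and 0.05 without library 7, and 1 of 50 lower and 0.63 without library 8. In A537T-TRAMP 36 of 52 were lower with a median of -0.18, and 0 were called with limma, 6 having an unadjusted p under 0.05. After TMM scaling 39 were lower with a median of -0.30 and 1 call, with edgeR 42 were lower with a median of -0.42 and 0 calls, and without library 15 of that line 24 of 53 were lower and the median was 0.04. The summed level in KO-TRAMP was 1033, 2605 and 1482 RPM at 10 weeks and 1609, 1855 and 1902 at 30 weeks, and in A537T-TRAMP it was 1586 to 2281 and 1181 to 1865. The sums of both lines overlapped between ages. Member by member, 6 were higher without overlap in KO-TRAMP, against 19.9% of all tested, and 10 were lower without overlap in A537T-TRAMP, against 4.03%. At 10 weeks library 8 of KO-TRAMP and library 6 of A537T-TRAMP lay within the WT-TRAMP range of 2230 to 2850, and the others below it.

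The test of the difference between lines found no member past an adjusted p of 0.05. Against KO-TRAMP all 52 differences were above 0, with a median of 1.39, 40 unadjusted p under 0.05 with limma and 28 with edgeR, while over all 512 miRNAs 68.8% were above 0 and 17.8% were higher at an unadjusted p under 0.05. For miR-127-3p the difference was 1.16 (SE 0.41, adjusted p = 0.195). Without library 8, 34 members passed, and without library 16, 15 did. Against A537T-TRAMP all 51 were above 0, with a median of 0.96, 30 unadjusted p under 0.05 with limma and 26 with edgeR, against 67.5% above 0 over all, and without library 11, 5 passed. Both differences contain the WT-TRAMP age difference, in which all 52 members were below 0. After TMM scaling 4 of those 51 were below 0, and with edgeR 3.

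Over all miRNAs, 0 of 512 passed in the difference between KO-TRAMP and WT-TRAMP with limma (19.7% had an unadjusted p under 0.05) and with edgeR (98 had one), and miR-877-5p had the smallest p, with a difference of 1.66 (adjusted p = 0.0954). Between A537T-TRAMP and WT-TRAMP 0 of 504 passed with limma (89 unadjusted p under 0.05) and 1 with edgeR, and miR-708-3p was lowest in p, with a difference of -2.07 (adjusted p = 0.0508). TMM scaling moved the median of all miRNAs from 0.26 to -0.03 for KO-TRAMP and from 0.25 to -0.08 for A537T-TRAMP. Both differences use the WT-TRAMP libraries and are not independent of each other.

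**Figure D5:**
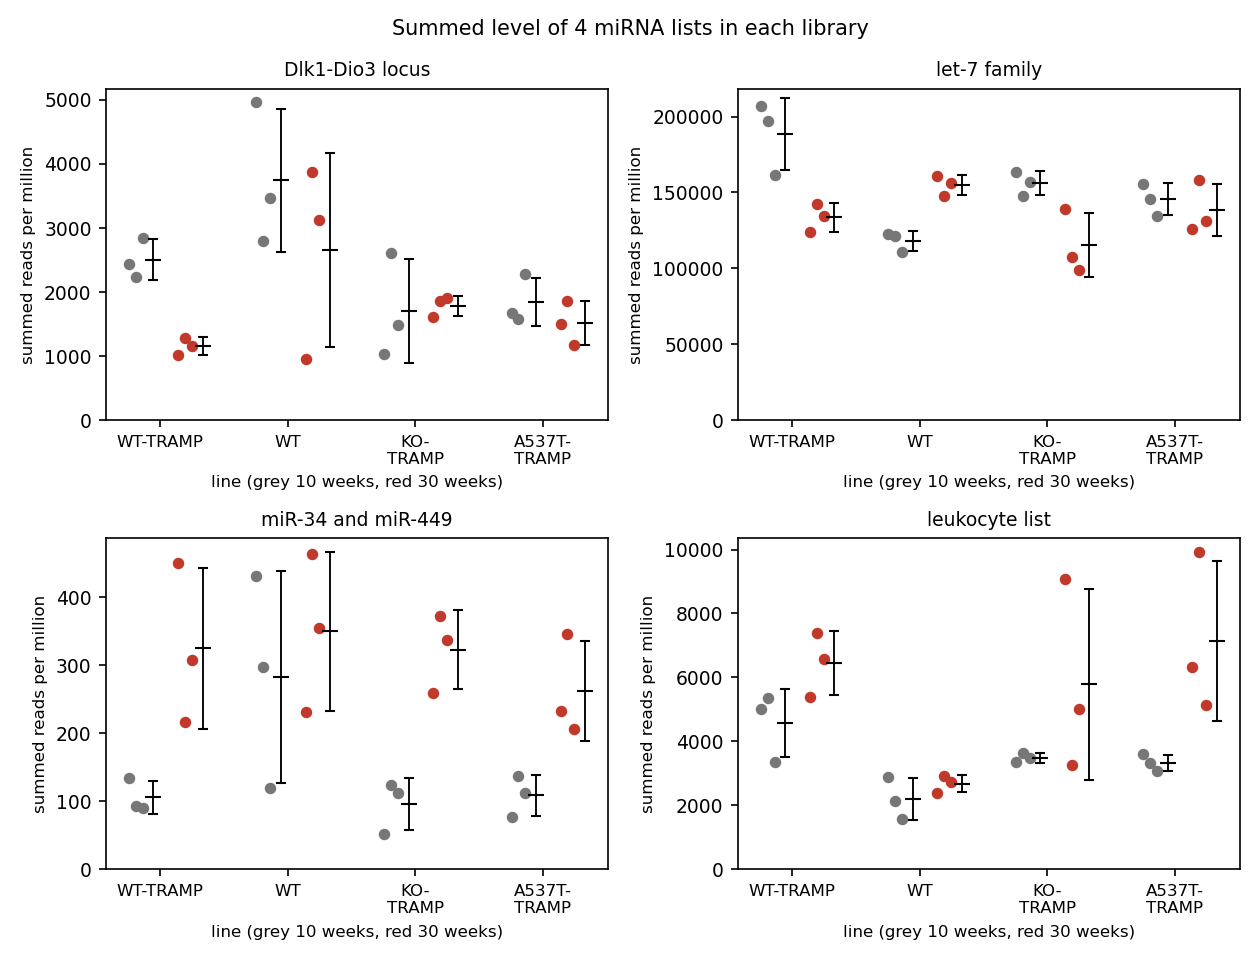
Summed RPM of 4 miRNA lists in every library of 4 lines at 10 weeks (grey) and 30 weeks (red), with mean and SD of 3 libraries in black. At 30 weeks the Dlk1-Dio3 sum was lower without overlap in WT-TRAMP. The let-7 sum was lower without overlap in WT-TRAMP and in KO-TRAMP. In WT the let-7 sum was higher, and its ages overlapped once the muscle list was left out of the totals. The miR-34 sum was higher at 30 weeks without overlap in the 3 lines with TRAMP. In WT-TRAMP it was 90.7 to 134 RPM at 10 weeks and 217 to 451 at 30 weeks. In WT it was 120 to 431 at 10 weeks and 231 to 463 at 30 weeks, and overlapped.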

How the data were processed

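Small RNA of ventral and lateral prostate was sequenced in 36 libraries and deposited in 8 tables of 6 libraries. According to the methods, the authors merged read pairs, counted mature miRNAs of GRCm38 with mirDeep2 and tested them with DESeq2. The deposited values are a signal of normalised counts, and the factor of each of the 48 columns lay within 0.1% of DESeq2's median of ratios over the 6 libraries of its table, computed here from the recovered reads. Each column names a library by number without a group or replicate, and its group rests on the 2 groups named by its tables. The 12 columns present in more than 1 table held identical counts, and 0 columns matched no group. Deposited tables of fold changes and s-values were not used.

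Whole reads were recovered for 100% of values (tolerance 0.01) by undoing the size factors. Each column was divided by its sum and multiplied by 1000000 (reads per 1000000, RPM), which allowed separately normalised tables to be joined. limma 3.58.1 with a variance trend was fitted to log2(RPM + 1) of miRNAs with a mean of at least 1 RPM, with Benjamini-Hochberg adjustment over all miRNAs of the fit and a two-sided threshold of 0.05. An interaction contrast over 12 libraries compared the age difference of lines. edgeR 4.0.16 (quasi-likelihood, TMM) and DESeq2 1.42.0 on recovered reads, other filters and pseudocounts, thinning, and leaving out libraries were alternatives, run in R 4.3.3 and Python 3.11.15. The fits were tested on simulated data. Libraries carried no molecular identifiers, so that read counts can include PCR copies.

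Named miRNAs were up to 12 rises and 12 falls past the threshold, without overlap, with a mean of at least 100 RPM, up to 4 of each with a lower mean, the 10 highest, up to 4 of each list, and up to 5 of each other comparison. Members and lists were chosen with earlier results of these data known, and miRNAs outside this rule were chosen after their values were seen.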

Additional observations from a re-analysis of the deposited data

Results flagged for a closer look

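The age difference differed between WT-TRAMP and WT for 56 miRNAs (limma interaction, adjusted p under 0.05), and 19 of those named are given here as the difference of log2 fold changes, WT-TRAMP minus WT. Higher values came from muscle-enriched miRNAs that fell in WT, with miR-133a-3p at 3.62, miR-133a-5p at 4.68, miR-1a-3p at 5.12, miR-133b-3p at 3.40 and miR-378c at 2.48. The skeletal muscle list took 9.86% to 30.9% of reads in WT at 10 weeks and its part in the other differences was not tested beyond leaving the list out. Among miRNAs that rose in WT-TRAMP, the differences were 1.16 for miR-30a-3p, 0.69 for miR-30c-5p, 1.43 for miR-126a-3p, 1.94 for miR-34c-3p, 1.63 for miR-155-5p and 2.52 for miR-708-3p. Lower values were -1.40 for let-7c-5p, -1.60 for let-7b-5p, -0.88 for let-7f-5p, -1.05 for let-7a-5p, -1.12 for miR-98-5p, -1.38 for miR-204-5p, -1.38 for miR-200c-3p and -1.47 for miR-429-3p.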

How the results depend on the processing

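No paired analysis was possible because the columns carry no replicate number and the ages were sampled in different animals, so that the planned replicate block could not be fitted. In WT-TRAMP, 104 miRNAs were called, and the count was 59 without a filter, 69 with a mean of at least 10 RPM, 39 in a fit of all 36 libraries, and 0 in each of 2 fits chosen after seeing the data, edgeR and TMM scaling with library 12 left out. Leaving out single libraries gave 15 (library 12) to 146 (library 11), with 66 without library 2 and 64 without library 10. WT gave 8 instead of 20 without the muscle list and 4 to 17 with a library left out, with 9 without library 20, 4 without 21 and 7 without 29. KO-TRAMP gave 0 to 124, the latter without library 16. A537T-TRAMP gave 0 with edgeR and 0 to 2 with a library left out, each of its 6 libraries moving the count. The interaction with WT gave 35 (library 12) to 71 (library 11), and 7 without libraries 12 and 21, a setting also chosen after seeing the data. KO-TRAMP minus WT-TRAMP gave 1 with a pseudocount of 10 and 0 to 73, with 42 without library 8 and 73 without library 16. A537T-TRAMP minus WT-TRAMP gave 1 with TMM scaling, 1 with edgeR and 0 to 21, with 3 without library 4 and 21 without library 11. The causes were not tested. Over all comparisons 70 alternative counts stayed within 1.5 times of the first and 29 did not. Of single miRNAs, 1331 alternatives kept direction and side of the threshold, 394 lost and 32 gained significance, and 3 changed sign. These were miR-148a-3p, at -0.076 without library 1 in a range of -0.076 to 0.21, and miR-21a-5p, at -0.02 without library 3 and -0.10 without library 11 in a range of -0.10 to 0.24. miRNAs of few reads are limited by depth, since the shallowest WT-TRAMP library held 4544257 reads. Depth went with age, as every 10-week WT-TRAMP library was shallower than every 30-week one. With reads thinned to the shallowest WT-TRAMP library, 76 miRNAs passed, 22 higher and 54 lower.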
